A study of Homo sapiens with 2 samples.

Results

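Histone genes were described across 1 list of ChIP-seq peaks from F36P, a human erythroleukaemia cell line. The 85 genes were every protein-coding RefSeq gene on GRCh38 whose symbol begins with H1-, H2AC, H2BC, H3C, H4C, H2AZ, H2AX, H2AJ, H2BU, H3-, H4- or MACROH2A, out of 19974 protein-coding genes on chromosomes 1 to 22 and X. By symbol and chromosome, 55 belonged to the chromosome 6 cluster, 13 to the chromosome 1 clusters, 2 were other replication-dependent genes (H4C16 on chromosome 12 and H2BC12L on chromosome 21) and 15 were variants. One population of cells carried AM-ERG, which is the ETS-family transcription factor ERG joined to an AM tag and expressed from the retroviral vector MSCV-PIG. The Vector cells carried empty MSCV-PIG. Both were kept in puromycin at 1 µg/ml for 4 days, both were precipitated with an antibody to the tag, and the labels give 1 library of each. The AM-ERG signal is therefore that of an introduced, tagged protein, and its level beside the cells' own ERG was not measured here. The deposited list does not say which library it was called from, so its peaks are called listed peaks. No replicate error could be given and no test between AM-ERG and Vector cells was possible.

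Histones package DNA. The replication-dependent genes encode most of the H1, H2A, H2B, H3 and H4 made in S phase; they are short, lack introns, lie in clusters where H2A and H2B genes often share a divergent promoter, and give mRNAs that end in a stem-loop in place of a poly(A) tail. Variant genes mostly lie outside the large clusters, usually give polyadenylated mRNA, and supply chromatin outside replication, among them H2A.Z, H2A.X, macroH2A and H3.3. Dividing blood progenitors need the replication-dependent supply in each S phase. ERG recognises DNA with the core letters GGAA.

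The 1564 listed peaks on chromosomes 1 to 22 and X had a median fold enrichment of 4.66 (1.27 to 23.3). Fold enrichment is the authors' value for the signal at the summit, the highest point of a peak, over the local background. The number of fragments at the summit (pileup) and the local background were recovered from the deposited values, and their medians were 21 and 3.52 fragments. The depth of the libraries was unknown.

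Of the 1564 listed peaks, 6 lay within 10 kb of an end of a histone gene, and 5 of them within 1 kb. For comparison, 966 peaks lay within 1 kb of an end of any protein-coding gene, and 85 of the 19974 protein-coding genes are histone genes. The sequences before the starts of the 6 genes with a listed summit within 1500 bp of a start of known direction are shown as the promoters closest to listed signal, and that of H2AC18 because it repeats H2AC19's. Each is the 250 bases before the annotated start from RefSeq (GRCh38.p14), read in the direction of the gene, with the ETS core GGAA or its reverse complement TTCC in capitals. The windows are chr1:149850811-149851060 on the plus strand for H2AC19, chr1:149842751-149843000 on the minus strand for its neighbour H2AC18, chr6:27146859-27147108 (minus) for H2BC12, chr12:14771132-14771381 (minus) for H4C16, chr12:14774155-14774404 (plus) for H2AJ, chr4:99950276-99950525 (minus) for H2AZ1 and chr1:226061581-226061830 (plus) for H3-3A. RefSeq sequence was matched for 77 of the 85 genes, and H2AC12 was among those without an entry.
H2AC19: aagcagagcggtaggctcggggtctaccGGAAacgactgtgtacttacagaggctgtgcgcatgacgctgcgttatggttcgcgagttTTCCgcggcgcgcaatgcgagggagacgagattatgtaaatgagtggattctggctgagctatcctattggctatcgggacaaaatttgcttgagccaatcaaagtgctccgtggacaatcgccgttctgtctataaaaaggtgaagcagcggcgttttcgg
H2AC18: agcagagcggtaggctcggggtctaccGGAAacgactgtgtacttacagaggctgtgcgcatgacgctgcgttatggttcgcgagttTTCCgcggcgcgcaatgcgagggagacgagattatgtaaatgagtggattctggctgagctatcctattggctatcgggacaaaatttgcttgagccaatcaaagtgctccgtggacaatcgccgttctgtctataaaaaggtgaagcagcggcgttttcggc
H2BC12: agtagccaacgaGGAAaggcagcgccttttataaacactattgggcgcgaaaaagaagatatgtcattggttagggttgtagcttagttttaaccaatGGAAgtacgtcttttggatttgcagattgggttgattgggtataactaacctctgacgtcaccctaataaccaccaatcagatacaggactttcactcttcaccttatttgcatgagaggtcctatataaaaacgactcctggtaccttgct
H4C16: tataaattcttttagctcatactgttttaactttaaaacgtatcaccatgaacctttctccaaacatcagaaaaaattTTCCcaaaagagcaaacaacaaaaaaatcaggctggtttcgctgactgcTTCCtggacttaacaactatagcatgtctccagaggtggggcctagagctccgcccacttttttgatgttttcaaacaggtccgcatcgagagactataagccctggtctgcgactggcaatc
H2AJ: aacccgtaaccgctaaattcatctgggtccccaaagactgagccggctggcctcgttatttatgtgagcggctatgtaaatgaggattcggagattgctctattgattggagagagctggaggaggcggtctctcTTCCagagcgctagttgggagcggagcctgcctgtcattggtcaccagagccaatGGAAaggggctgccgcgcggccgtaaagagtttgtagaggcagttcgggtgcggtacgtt
H2AZ1: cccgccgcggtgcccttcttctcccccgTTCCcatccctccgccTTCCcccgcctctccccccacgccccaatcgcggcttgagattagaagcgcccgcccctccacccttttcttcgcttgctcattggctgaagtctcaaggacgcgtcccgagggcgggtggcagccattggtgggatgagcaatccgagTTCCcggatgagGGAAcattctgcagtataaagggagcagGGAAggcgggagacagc
H3-3A: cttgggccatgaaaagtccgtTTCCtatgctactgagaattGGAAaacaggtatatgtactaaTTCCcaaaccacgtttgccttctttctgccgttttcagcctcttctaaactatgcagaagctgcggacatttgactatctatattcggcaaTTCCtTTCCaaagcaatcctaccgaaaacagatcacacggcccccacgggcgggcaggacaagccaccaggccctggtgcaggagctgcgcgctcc

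A listed peak had its summit within 1 kb of an end of 6 of the 85 histone genes, or 7.06% (95% Wilson interval 3.28 to 14.6%, counting error only), where the same held for 5.86% of all protein-coding genes (1170 of 19974). The share of histone genes was near that background. The 6 were H2BC12 and H2AC12, which share a peak in the chromosome 6 cluster, H2AC19 in the larger chromosome 1 cluster, the single gene H4C16, and the variants H2AJ and H2AZ1. Within 10 kb of an end the count was 12, or 14.1% (8.26 to 23.1%), against 9.01% of all protein-coding genes (1800 of 19974). The genes added by the wider window were H4C9 on chromosome 6, H3C15, H4C15, H2AC18 and H3C14 on chromosome 1, and H3-3A. Of these 12, 5 stood beside the same chromosome 1 peak and 3 beside the same chromosome 6 peak, so the genes were not independent counts. Without the 208 peaks whose background was over 2 times the median, among them that chromosome 1 peak, 7 histone genes (8.24%) had a summit within 10 kb, against 8.57% of all protein-coding genes. H2AJ, at 795 bp, and H3-3A, at 1123 bp, were the genes just inside and just outside 1 kb. H3C14, at 9466 bp, and H2AC11, at 12.9 kb, were those just inside and just outside 10 kb.

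The counts were also split by histone family. A summit lay within 1 kb of 4 of 23 H2A genes (H2AC19, H2AC12, H2AJ and H2AZ1), 1 of 19 H2B genes (H2BC12), 1 of 15 H4 genes (H4C16), 0 of 18 H3 genes and 0 of 10 genes for the linker histone H1. Within 10 kb the counts were 5 of 23, 1 of 19, 3 of 15, 3 of 18 and 0 of 10 in the same order of families. Over all protein-coding genes the shares were 5.86% within 1 kb and 9.01% within 10 kb. Most histone genes are short, and a short gene brings its ends close together. Of the 67 histone genes of at most 2000 bp, 3 (4.48%) had a summit within 1 kb and 7 (10.4%) within 10 kb, where all 1249 protein-coding genes of that length had 2.56% and 4.72%. Of those 7, 4 stood beside the chromosome 1 peak.

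**Figure D1:**
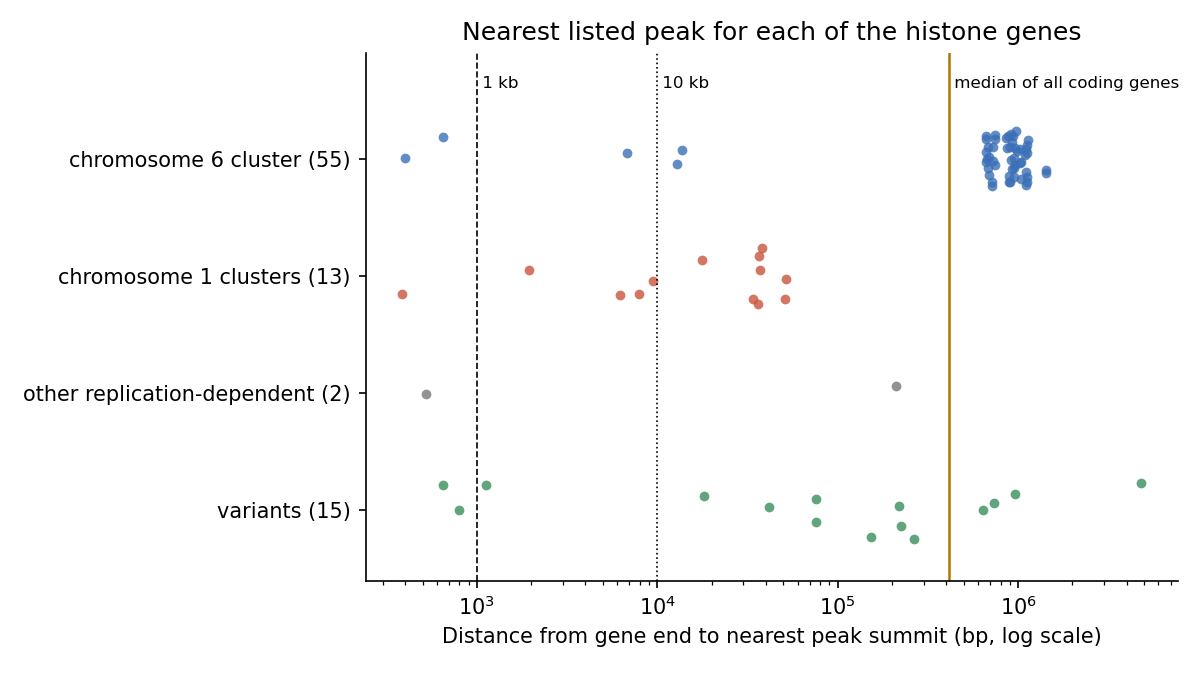
Distance from each of the 85 histone genes to the nearest listed summit, on a log scale in bp, by group. Each point is 1 gene, the dashed and dotted lines stand at 1 and 10 kb, and the solid line is the median of all protein-coding genes (412 kb). In the chromosome 6 cluster 5 genes stand near 1 peak and the other 50 stand at 661 to 1420 kb.

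The chromosome 6 cluster held a single listed peak. Its 55 genes span 2.17 Mb (25726063 to 27893891), and the next summits on chromosome 6 were 6.74 Mb below and 6.15 Mb above that peak. The 20 other protein-coding genes overlapping the same span also had 0 summits within 10 kb. The peak, at 27146232 to 27146668, had a fold enrichment of 6.11, and a pileup of 18 fragments on a background of 2.11. The authors' deposited table gives it a −log10 q of 7.43. By fold it had rank 325 among the 1564 peaks and the highest fold at any histone gene. Its summit lay 400 bp inside H2BC12, counted from the annotated start of this H2B gene, and 648 bp from the nearer end of the neighbouring H2A gene H2AC12. The peak began 190 bp after the H2BC12 start, so the stretch between H2BC12 and H2AC12, printed above as the H2BC12 window, lay outside it. The H4 gene H4C9, 6780 bp away, was the third gene within 10 kb.

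The remaining chromosome 6 genes had no listed peak near them. H2AC11 and H2BC11, a neighbouring H2A and H2B pair, were the closest at 12.9 and 13.7 kb from the same summit. Of the other 50 genes, 34 lay on the lower-coordinate side at 861 to 1420 kb and 16 on the higher-coordinate side at 661 to 747 kb. They include the H1 genes H1-1 to H1-6, grouped here as replication-dependent by symbol alone, and all chromosome 6 genes of the H3C series. Over the chromosome 6 cluster, 2 of 55 genes (3.64%) had a summit within 1 kb and 3 (5.45%) within 10 kb, against 4.96% and 7.82% of the 1049 protein-coding genes of chromosome 6.

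The larger chromosome 1 cluster also held a single listed peak. Its 11 genes span 105 kb (149782689 to 149887965), and 5 of them were within 10 kb of the peak at 149850426 to 149850815. Its summit stood 387 bp before the start of the H2A gene H2AC19, and the peak reached 5 bp into the window of that gene's promoter printed above. The summit was also inside H2BC20P, an H2B pseudogene, 99 bp from its nearer end. The start of the H3 gene H3C15 was 1934 bp from the summit, that of the H2A gene H2AC18 7924 bp and that of the H3 gene H3C14 9466 bp. The H4 gene H4C15, annotated as 16753 bp long, contains the summit. It lay 6186 bp from the far end of H4C15 and 10485 bp after its start. The peak's fold enrichment of 3.32 was the lowest at any histone gene (rank 1348 of 1564) and the background of 7.74 fragments the highest, 28 fragments being piled up at the summit. Over both chromosome 1 clusters, 1 of 13 genes (7.69%) had a summit within 1 kb and 5 (38.5%) within 10 kb. The shares of all protein-coding genes were 5.86% and 9.01%. All 5 genes stood beside this 1 peak, so they were not independent counts.

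Promoters on either side of the chromosome 1 peak repeat each other. The printed windows of H2AC18 and H2AC19 had the same letter at 249 of 249 positions after a shift of 1 base, those of H3C14 and H3C15 at 246 of 246 after a shift of 4, and those of H4C14 and H4C15 at 250 of 250 with none. The labels and notes do not say how reads that map to more than 1 place were treated. H2AC18 and H2AC19, and the other pairs, are therefore reported as uncertain. A listed peak stands on the H2AC19 side alone, and whether the sequence under it is repeated was not analysed here. H4C14, the twin of H4C15, was 17.6 kb from the summit, and H2BC21 33.8 kb. The other genes of the larger cluster, H2AC20, H2AC21, H3C13 and H2BC18, were 36.2 to 38.3 kb away. The 2 replication-dependent genes of the smaller cluster, H2AC25 and H2BC26, had their nearest summit at 50.7 and 51.5 kb, at another peak. The H3 gene H3-4, counted here with the variants, lies beside them and was 18.2 kb from that same summit.

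H4C16 and H2AJ are neighbours on chromosome 12, and their nearest listed peaks were different ones. H4C16 is an H4 gene outside the clusters, and H2AJ encodes the H2A variant H2A.J. The H4C16 peak, at 14769997 to 14770341, had a fold of 4.08, a pileup of 13 fragments and a background of 2.43. Its summit lay 936 bp after the start of H4C16, which is 525 bp beyond the gene's far end. The same summit was inside another annotated protein-coding gene, LOC105369669, 462 bp after its start. That start was nearer to the summit than either end of H4C16, so the peak cannot be assigned to H4C16 alone. The H2AJ peak, at 14775024 to 14775390, had a fold of 3.93, a pileup of 14 and a background of 2.82, with the summit 795 bp after the H2AJ start and inside the gene. Both ranked low in the list, at 1065 and 1128 of 1564 by fold. The other single gene, H2BC12L, had its nearest summit 211 kb away.

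Among the 15 variants, H2AZ1 and H3-3A also had a peak within 10 kb. Over the variants, 2 genes (13.3%) had a summit within 1 kb and 3 (20.0%) within 10 kb. The shares of all protein-coding genes were 5.86% and 9.01%. H2AZ1 encodes H2A.Z, which marks nucleosomes beside active starts. Its peak on chromosome 4, at 99949462 to 99949771, had a fold of 4.72, a pileup of 17 and a background of 2.82, and the summit lay 645 bp after the start, inside the gene. H3-3A is 1 of the 2 genes for H3.3, the H3 variant deposited outside replication. Its peak on chromosome 1, at 226062858 to 226063168, had a fold of 4.82, a pileup of 14 and a background of 2.11, and the summit lay 1123 bp after the start, inside the gene. That summit was also 459 bp from an end of the noncoding gene H3-3A-DT. These 2 folds stood at ranks 754 and 698, close to the middle of the list.

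The other 12 variants had no summit within 10 kb. The closest was the testis H3 gene H3-4 at 18.2 kb. H3-3B, the other H3.3 gene, was 76.2 kb from a summit, and H2AZ2, the other H2A.Z gene, 263 kb. H2AX, whose product is phosphorylated at DNA breaks, was at 734 kb. The macroH2A genes MACROH2A2 and MACROH2A1 were at 219 and 963 kb. H3-7 was 640 kb from its nearest summit and H3-5 the farthest at 4777 kb.

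The 6 peaks were spread over the list by fold and lay mostly in its lower part by pileup and q. Their folds of 3.32 to 6.11 (median 4.40) compare with a median of 4.66 over all 1564 peaks and of 4.87 over the 966 peaks within 1 kb of any protein-coding gene end. In the list they stood at the 79.1 percentile of fold (H2BC12 and H2AC12), 55.3 (H3-3A), 51.6 (H2AZ1), 32.0 (H4C16), 27.6 (H2AJ) and 13.9 (H2AC19). Pileups were 13 to 28 fragments, with a median of 15.5 against 21 over all peaks, and only that at H2AC19 was above 21. In the authors' deposited table their median −log10 q was 4.28, against 5.86 over all peaks. By q the H2BC12 and H2AC12 peak had rank 580 and the other 5 had ranks 978 to 1359 of 1564. The backgrounds of 5 of the 6 were 2.11 to 2.82 fragments, below the median of 3.52, while that at H2AC19 was above it.

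**Figure D2:**
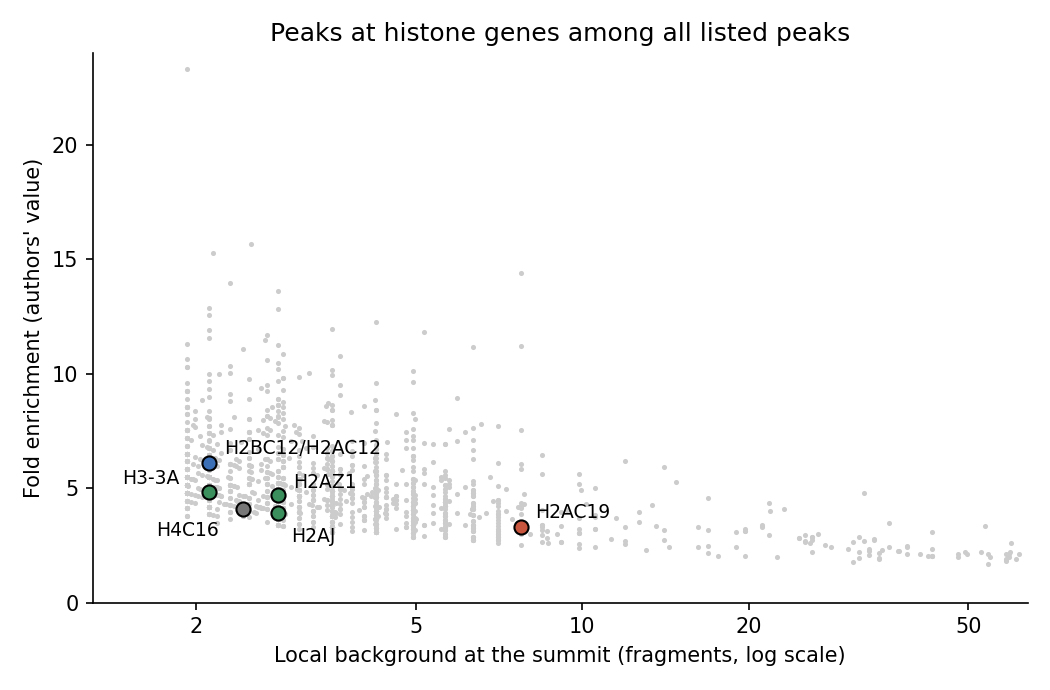
Fold enrichment (authors' value) against local background in fragments (log scale) for listed peaks on chromosomes 1 to 22 and X, with the 6 peaks at histone genes outlined and coloured by group. The 35 peaks with a background above 64 fragments are outside the axis. The histone peaks sit at folds of 3.32 to 6.11, and H2AC19 stands apart at a background of 7.74 fragments.

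Relative to gene starts, the summits lay mostly downstream. Among the 6 histone genes with an annotated direction and a summit within 1500 bp of the start, 5 had it 400 to 1123 bp after the start, and H2AC19 had it 387 bp before. The median position was 720 bp after the start. For the 974 other protein-coding genes with such a summit the median was 87.5 bp after the start (quartiles −183 and 211 bp), and 587 (60.3%) had it after the start. A summit between 250 bp before and 50 bp after the start was present at 0 of the 6 histone genes and at 260 (26.7%) of the others. With 6 genes this is a description, and the difference was not tested.

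**Figure D3:**
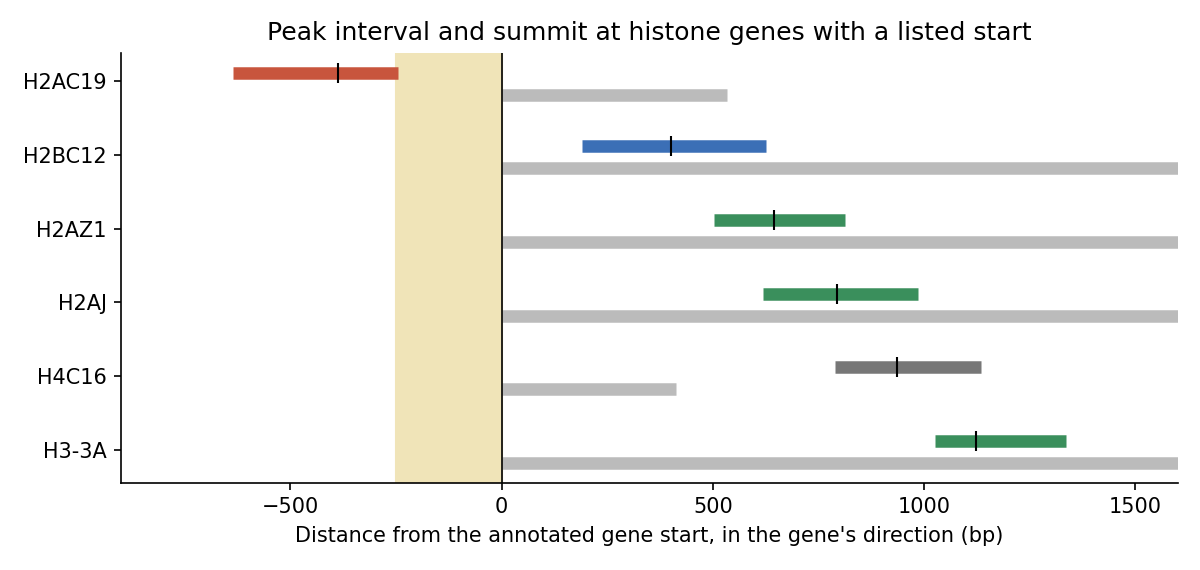
Peak interval (coloured bar) and summit (black tick) relative to the annotated start, in bp along the gene's direction, for the 6 histone genes with a summit within 1500 bp of a start of known direction. Grey bars are the genes, drawn to 1600 bp at most, and the shaded band is the 250 bases before the start. Summits run from 387 bp before the start at H2AC19 to 1123 bp after it at H3-3A.

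The promoter letters of histone genes were set beside those of all protein-coding genes. The 77 histone windows were not all separate sequences. Some divergent H2A and H2B neighbours start so close together that their windows overlap. H2BC4 (minus strand, start 26123926) and H2AC6 (plus strand, start 26124172) are an example. A motif on either strand was then counted for both genes, so the counts below were not independent. CCAAT, a box bound by NF-Y, was present on either strand in 64 of 77 histone promoters (83.1%), against 34.4% of the 15813 protein-coding promoters. The TATA box letters TATAAA were in 48 (62.3%), against 9.25%. ATTTGCA, taken from the octamer of H2B promoters bound by OCT1, was in 27 (35.1%), against 3.13%. The GATA core GATAA was in 12 (15.6%), against 16.5%. The ETS core GGAA was in 70 (90.9%), against 92.4%, so nearly every promoter holds it. The longer ETS core CGGAAG, which contains GGAA, was in 6 (7.79%), against 21.6%. The median GC content of these windows was 44.4% in histone genes and 62.4% in all protein-coding genes.

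**Figure D4:**
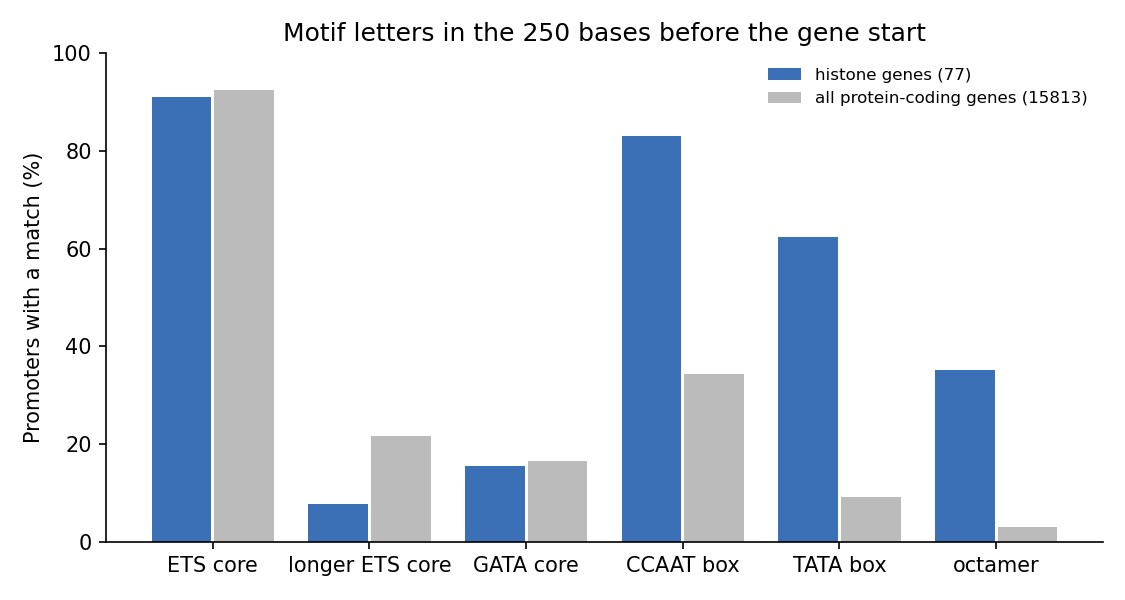
Share of promoters, in percent, whose 250 bases before the start hold each motif on either strand, for 77 histone genes (blue) and 15813 protein-coding genes (grey). The CCAAT letters stand at 83.1% of histone promoters and 34.4% of all, the TATA box letters at 62.3% and 9.25%, the octamer letters at 35.1% and 3.13%, and the longer ETS core at 7.79% and 21.6%.

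The longer ETS core was then counted by the position of the summit. It was in 0 of the 5 histone promoters with a summit within 1 kb of an end and a matched sequence, those of H2AC19, H4C16, H2AJ, H2AZ1 and H2BC12, while GGAA was in 5 of 5. Among other protein-coding genes the longer core was in 188 of 260 promoters (72.3%) where the summit lay in the promoter window, from 250 bp before to 50 bp after the start, and in 468 of 968 (48.3%) where a summit lay within 1 kb of an end. It was in 25 of 122 (20.5%) where the summit lay 400 to 1500 bp after the start, a range whose lower limit equals the position of the H2BC12 summit and was chosen after it was seen. The peaks at the histone genes lay outside the windows apart from the 5 bp at H2AC19, and the sequence under them was not analysed here. The share of genes with a summit near either end was higher at higher promoter GC content in both sets, though few histone genes were counted. Among genes with promoters under 50% GC, 2 of 56 histone genes (3.57%) and 53 of 3027 other genes (1.75%) had a summit within 1 kb of an end. At 50% GC or more the counts were 3 of 21 (14.3%) and 915 of 12709 (7.20%). Within 10 kb the counts were 3 of 56 (5.36%) and 93 of 3027 (3.07%) under 50% GC. At 50% GC or more they were 8 of 21 (38.1%) and 1362 of 12709 (10.7%), the genes beside the chromosome 1 peak being among those 8. By group the median GC content was 41.2% in the chromosome 6 cluster, 48.4% in the chromosome 1 clusters and 60.0% in the variants. The part of base composition in the counts was not tested.

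Genes that process histone mRNA or carry histones to DNA were counted beside the histone genes. Of the 42 genes of this list, 3 (7.14%) had a summit within 1 kb of an end and 5 (11.9%) within 10 kb, near the 5.86% and 9.01% of all protein-coding genes. ZNF473 encodes a U7 snRNP-associated zinc finger protein needed for histone pre-mRNA processing. It had a peak of 4.72 fold 204 bp from its nearer end, which also lay at an end of VRK3. No start with direction was matched for ZNF473. CPSF3, the endonuclease that cuts histone and polyadenylated pre-mRNA, had one of 4.79 fold 501 bp before its start, at an end of ITGB1BP1. HIRA, which encodes a subunit of the chaperone of H3.3, had one of 3.67 fold 169 bp before its start, at an end of MRPL40. LSM10, a U7 snRNP subunit gene, and IPO4, an importin gene, had summits 7628 and 6753 bp away, at ends of STK40 and TM9SF1. NPAT and CASP8AP2, components of the histone locus body, SLBP, which binds the stem-loop, and the replication chaperone genes CHAF1A, CHAF1B, ASF1A and ASF1B were among the 37 without a summit within 10 kb.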

How the data were processed

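One ChIP-seq peak list from F36P cells was analysed. Per the labels' protocols, fixed chromatin was cut with micrococcal nuclease and precipitated with an antibody to the AM tag. Per the submitters' processing notes, Bowtie2, MACS2 and deepTools were used with hg38; their versions and settings, the control used and any pooling are not stated there. Deposited was a headerless list of 1645 peaks with the authors' integer score, fold enrichment (a ratio to local background), −log10 p-value and −log10 q-value, and the summit's position; the largest q was 0.0474. Score was not used further.

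Gene positions came from RefSeq (GRCh38.p14; 59792 genes) and starts with direction from its promoter table. Distances ran from a summit (1-based) to either gene end. Pileup and background were solved from fold and p, as (pileup + 1)/(background + 1) and a Poisson tail; 1645 of 1645 peaks came back within 0.001 in log10 p. On simulated data 300 of 300 peaks and 200 of 200 distances were recovered. The members, the gene list and the motifs were chosen with earlier results of these data known. Named were all genes with a summit within 10 kb, those nearest beyond it, and of the 42 listed processing and chaperone genes those within 1 kb; others were named after their values were seen. With 1 library per group there was no test, and intervals cover counting error only. Figures were drawn with matplotlib 3.10.9, and tables made with numpy 2.4.6, SciPy 1.17.1 and pandas 2.3.3 under Python 3.11.15.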

Additional observations from a re-analysis of the deposited data

How the results depend on the processing

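No paired analysis was possible because AM-ERG and Vector each have 1 library without a replicate number. Of 60 alternative values, 39 stayed within 1.5 times of the reported count, or within 1 SD of the median fold. With the upper 50% of peaks by q (782 peaks), 2 histone genes had a summit within 1 kb and 3 within 10 kb, at 1 peak in either window. These included 0 genes in the chromosome 1 clusters and 0 variants, and the median fold of 6.11 was that of the 1 peak. The shares of all protein-coding genes then were 3.01% and 4.75%. With the upper 50% by fold the counts were 3 genes within 1 kb and 5 within 10 kb, at 2 and 3 peaks, and 0 in the chromosome 1 clusters. The shares of all protein-coding genes were 3.29% and 5.19%. The median fold was 5.41, but a cut by fold cannot lower a median fold, so this value does not measure stability. Leaving out the 208 peaks whose background was over 2 times the median left 7 genes within 10 kb (8.24%, against 8.57% of all protein-coding genes) and 0 in the chromosome 1 clusters, since the H2AC19 peak is among those 208. A window of 500 bp gave 2 genes at 2 peaks, 5 kb gave 2 genes in the chromosome 1 clusters, and 20 kb gave 5 in the chromosome 6 cluster, as fewer or more distances are admitted. Counting each peak for the nearest end alone gave 4 genes within 1 kb and 5 within 10 kb, since neighbours no longer share a peak. For these other windows and for the nearest-end rule the shares of all protein-coding genes were not computed. Those counts therefore cannot be set against a background. The longer ETS core was in 2 of the 11 matched promoters of genes within 10 kb, where GGAA was in 11. Depth limits what can be listed: the lowest pileup was 13 fragments at a histone gene and 10 at any of the 1564 peaks, and a gene without a listed peak may hold signal below that.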

Other observations

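Pseudogenes and divergent relatives of the histone genes were looked up in the same way. Of 27 pseudogenes with symbols of the same kind on chromosomes 1 to 22 and X, H2BC20P had a summit within 1 kb of an end, and H2BC19P, near the same chromosome 1 peak, was the second within 10 kb. Among all protein-coding genes the shares were 5.86% and 9.01%, and the share over all pseudogenes was not computed. Of 12 protein-coding relatives outside the symbol rule, 0 had a summit within 10 kb. The nearest were CENPA, the centromeric H3 variant, at 17.0 kb and H2BK1 at 22.2 kb, and H2BW1 was the farthest at 11714 kb. Among the 77 histone promoters with a matched sequence, the closest pairs besides H4C14 and H4C15 were also listed, each read in its gene's direction without a shift. They were H2AC7 and H3C4, whose starts share 1 window (100%), H4C11 and H4C12 (98.0%) and H2AC13 and H2AC14 (82.0%). Windows of divergent neighbours that overlap on opposite strands are not among these pairs.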
